A study of Caenorhabditis elegans with 48 samples.

Results

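The nuclear hormone receptor genes of *Caenorhabditis elegans* were followed through starvation of newly hatched larvae. The genes were taken by name, as every *nhr* symbol followed by a number except nhr-23, nhr-25 and nhr-49, which left 280 of 283 such symbols. Of these, 237 had more than 1 CPM (the count of a gene scaled to a library total of 1000000 gene counts) in at least 4 of 48 libraries and are called members below. The other 43 stayed under that level, and 23 of the 280 never exceeded 1 CPM in any library. The last genes left out were nhr-30, nhr-89 and nhr-192, whose fourth-highest library held 0.9214, 0.9395 and 0.9665 CPM, and the first ones kept were nhr-240, nhr-169 and nhr-217 with 1.05, 1.059 and 1.073 CPM. The same filter kept 16987 of 44968 genes in all.

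Nuclear hormone receptors are transcription factors that carry a zinc-finger DNA-binding domain and, in most cases, a domain that can bind small lipophilic molecules such as sterols, fatty acids or bile acid-like hormones. The family is far larger in *C. elegans* than in insects or vertebrates, because genes related to the vertebrate hepatocyte nuclear factor 4 (HNF4) multiplied in nematodes, largely on a single chromosome. A minority have clear relatives in insects or mammals, several of the HNF4-type receptors set fat storage and the breakdown of propionate and other nutrients, and most have no described function.

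The animals were wild-type larvae of the N2 laboratory strain that hatched into buffer without food and so stayed arrested in the first larval stage (L1). Polyadenylated RNA of whole animals was sampled at 12 time points with 4 replicates each, numbered 1, 5, 6 and 8. Counted from the nominal hatch, sampling began at -2 h and went on at 0, 2, 4, 6 and 9 h on the first day, then at 12, 24 and 48 h, and ended with 96, 192 and 288 h. There was no fed group, every group shared genotype and treatment, and the groups were defined by the time of sampling. The methods add that more larvae were collected at 192 and 288 h to make up for lethality. The samples at -2 h are labelled L1 larvae although they precede the nominal hatch, hatching went on after 0 h, and the methods describe lethality at the last times. According to the methods, 3 of the replicates each came from 1 culture sampled at all times and the remaining one from several cultures. Because whole animals were pooled, fewer cells of a type and less RNA per cell cannot be told apart in any value below. Libraries held 10164115 to 15962842 gene counts (median 12449156.5). Ribosomal RNA took a median of 3.21% of them, with 49.5% at -2 h for replicate 6 and 29.2% at 24 h for replicate 8. Marker genes of intestine, muscle, neurons, germline and hypodermis were detected at every time point, except for the muscle factor hlh-1, listed with 0 counts in all 48 libraries, and the intestinal transporter opt-2, which was not matched by name and not used here. Levels below are CPM scaled by the trimmed mean of M-values (TMM), and the values of 4 libraries are always given in the order of replicates 1, 5, 6 and 8. CPM is a share of the counts in a library, so every rise or fall below is relative. A higher CPM need not mean more mRNA per larva.

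Members were spread over all 6 chromosomes but lay mostly on chromosome V, which held 157 of the 237 (66.2%, against 22.5% of all genes tested). Chromosome IV held 29, X 22, II 11, I 10 and III 8. The annotation lists 226 members as protein coding and 11 as pseudogenes. With the RefSeq gene order, 129 members (54.4%) lay directly next to another *nhr* gene. The median over members of the mean level was 9 CPM, against 9.87 CPM over all genes tested, and means ran from 0.34 to 405 CPM. A mean of at least 10 CPM was reached by 110 members, and 52 stayed under 2 CPM.

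Per kilobase of exon, the most abundant receptor mRNAs were nhr-88 (129 CPM per kb on average over the 48 libraries), nhr-18 (110), nhr-1 (82.5), nhr-35 (72.7), nhr-19 (68.9), nhr-3 (53.2), nhr-97 (51.9) and nhr-32 (49.2), where the median member had 5.99 and the median gene tested 7.65 CPM per kb. These 8 followed different courses. nhr-1 had its highest mean of 315 CPM at 0 h and its lowest of 179 CPM at 288 h. In the comparisons of time points described below, nhr-1 was called higher from -2 h to 0 h and lower in a later one that ended before 288 h. nhr-97 had its highest mean, 465 CPM, at 2 h and its lowest, 65.3 CPM, at 288 h. nhr-35 went from 46.1 ± 4.2 CPM at -2 h to 213 ± 16.6 CPM at 96 h (SD, n = 4). nhr-19 went from 60.2 ± 10.9 CPM at -2 h to 227 ± 50.9 CPM at 288 h (SD, n = 4). nhr-3 was high at both ends, with means of 142 CPM at -2 h, 38.8 CPM at 4 h and 181 CPM at 288 h. In between it varied among replicates, and at 24 h its libraries read 93.8, 208, 84.9 and 70 CPM.

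nhr-88, on chromosome II, had the highest level of any member. Its libraries read 89.9, 81, 59.6 and 94 CPM at -2 h. They read 339, 338, 334 and 329 CPM at 12 h and 943, 860, 1005 and 1072 CPM at 192 h. The groups did not overlap at any of these steps, and the highest mean was 12 times the lowest. nhr-18, on chromosome V, covered a 16.8-fold range of means. Its libraries read 20.9, 24.7, 19.4 and 21.9 CPM at 0 h. They read 97.4, 95.7, 100 and 113 CPM at 12 h, then 152, 160, 164 and 169 CPM at 24 h and 326, 284, 347 and 322 CPM at 192 h. Each of these 4 groups lay wholly above the one before it.

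**Figure D1:**
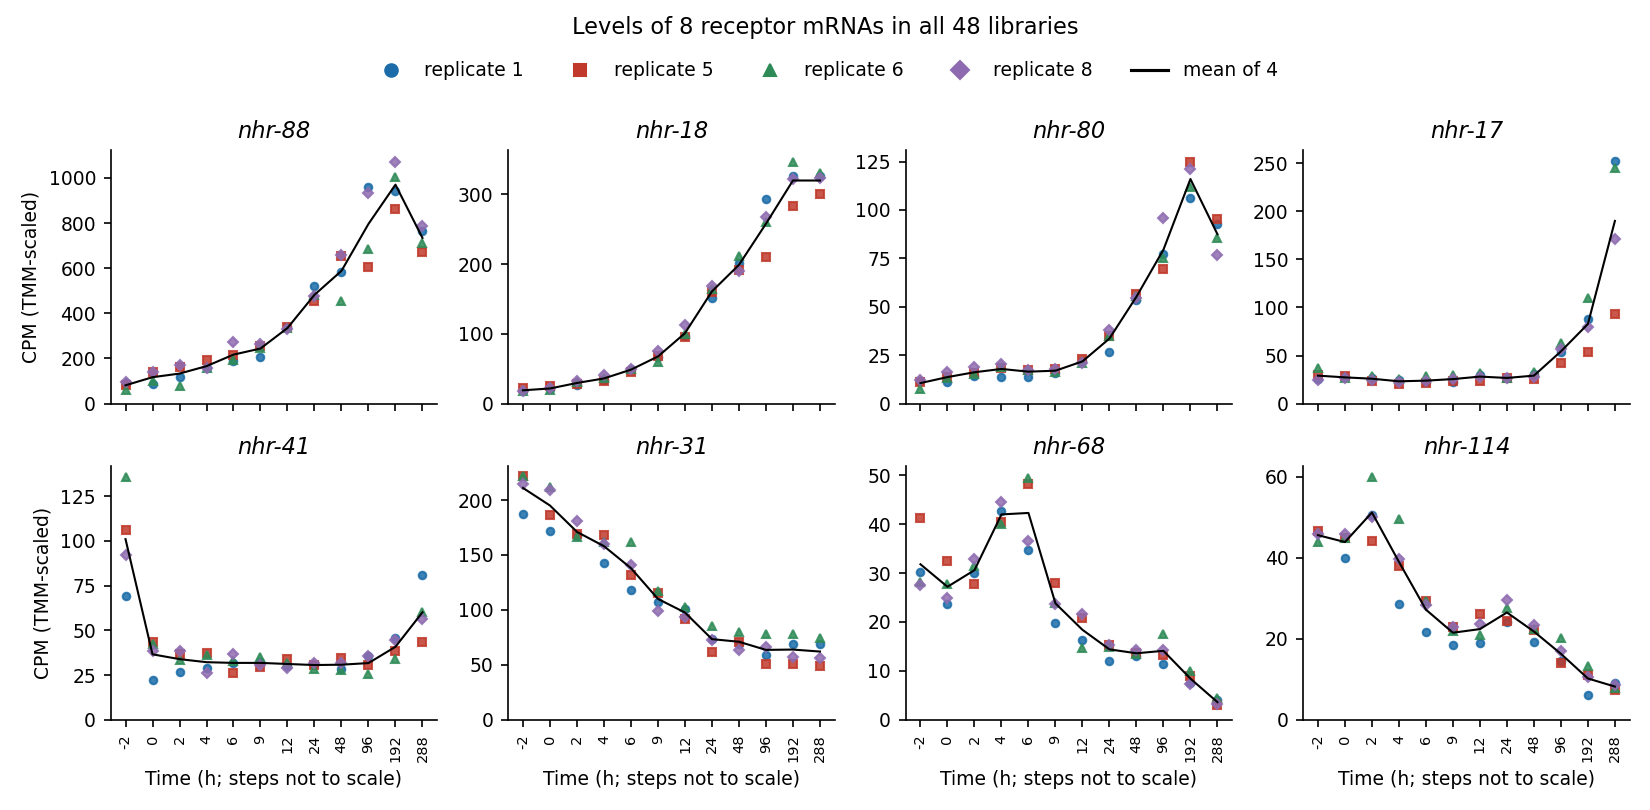
Levels of 8 receptor mRNAs (CPM scaled by TMM, axes from 0) in all 48 libraries against time in hours (steps not to scale), with 1 symbol per replicate and the mean of 4 as a line. The mean of nhr-88 reached 970 CPM at 192 h and that of nhr-80 116 CPM, whereas nhr-41 was high only at -2 h (101 CPM) and partly again at 288 h (60.1 CPM).

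Nearly every member changed at some point of the series. In edgeR's likelihood ratio test over the 12 time points, 217 of 237 members had a false discovery rate (FDR, the Benjamini-Hochberg adjusted p over all genes tested) under 0.05, or 91.6%, where 84.9% of all genes tested did. Among the 6600 genes with mean levels within the middle 50% of the members, 90.9% did. At an FDR under 1e-30 the member count was 62, or 26.2%, against 35.5% of all genes. The ratio of the highest to the lowest mean had a median of 2.92 and exceeded 10 in 15 members. Some of these were rare mRNAs, such as nhr-149 (5.34 CPM at 0 h and 0.161 CPM at 192 h), and others well-measured ones, such as nhr-170 (6.09 CPM at 0 h and 85.6 CPM at 288 h).

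The time of the highest mean was spread over the series. Among the 217 members, 78 were highest at 4 h or before (35.9%, against 44.1% of all genes past the same test). Another 47 were highest from 6 to 48 h (21.7% against 17.7%), 43 at 96 or 192 h (19.8% against 17.8%) and 49 at 288 h (22.6% against 20.4%). The sample taken before nominal hatch was the highest for 31 members (14.3% against 23.1%) and the lowest for 78 (35.9% against 22.6%). At 6 h, 19 members were highest, or 8.76% against 3.6% of all genes. These shares describe the family and were not tested.

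**Figure D2:**
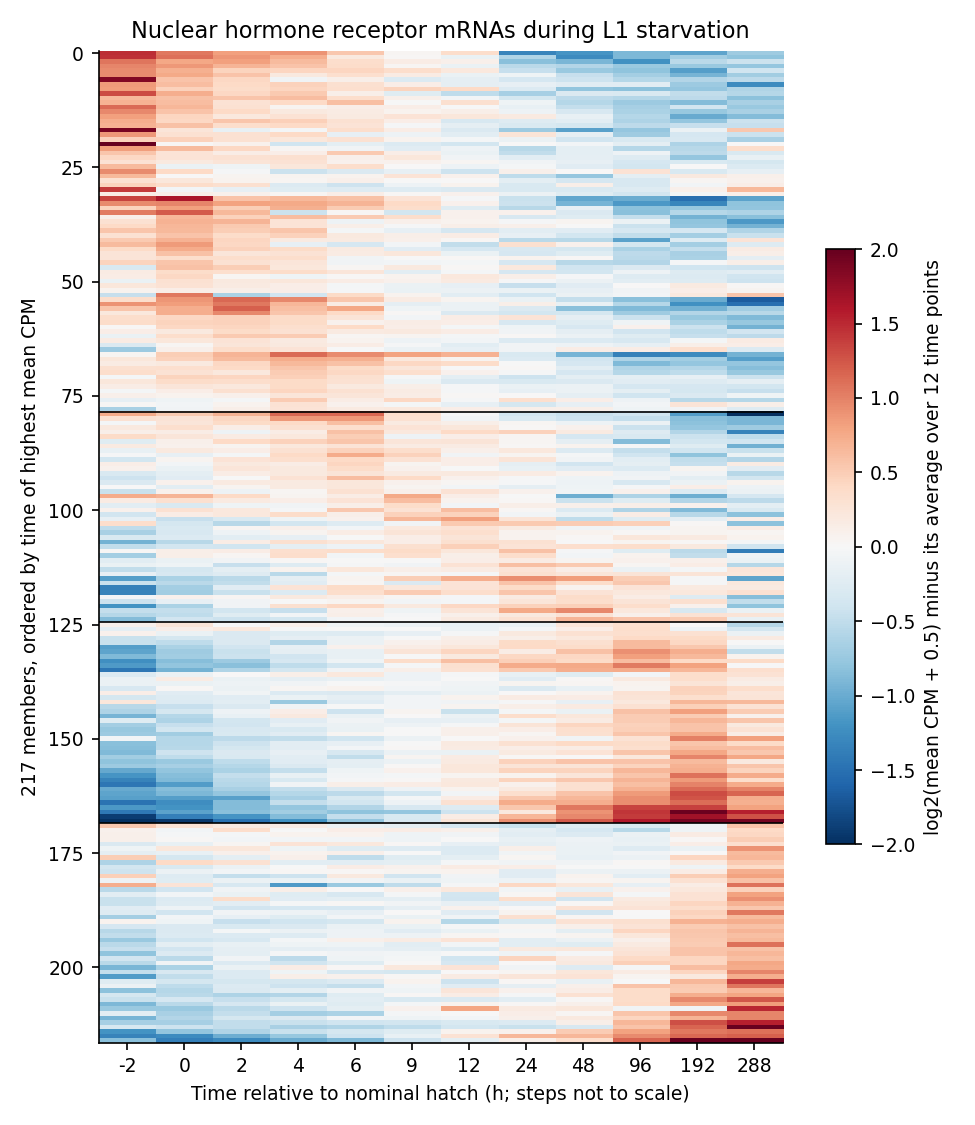
Each row is 1 of the 217 members past the test over 12 time points, each column a time point in hours (steps not to scale), and the colour is log2(mean CPM + 0.5) minus its average over the row, from blue (low) to red (high). Black lines separate the 78 members highest at 4 h or before, the 47 highest from 6 to 48 h, the 43 highest at 96 or 192 h and the 49 highest at 288 h.

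The 5 comparisons of time points below used edgeR's quasi-likelihood F test in 1 fit of all 48 libraries, with FDR over all 16987 genes, and log2 fold changes are given with their standard errors (1 log2 unit is a doubling). Comparisons that follow each other share the libraries of 1 time point. At least 1 of the 5 called 172 of the 237 members, and 65 were called in none. The same share over all genes tested was not counted, so these numbers say nothing particular to the family. Leading members are named among those that averaged at least 2 CPM over the 48 libraries and moved the same way in 4 of 4 replicates, since rarer mRNAs rest on few counts.

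**Figure D3:**
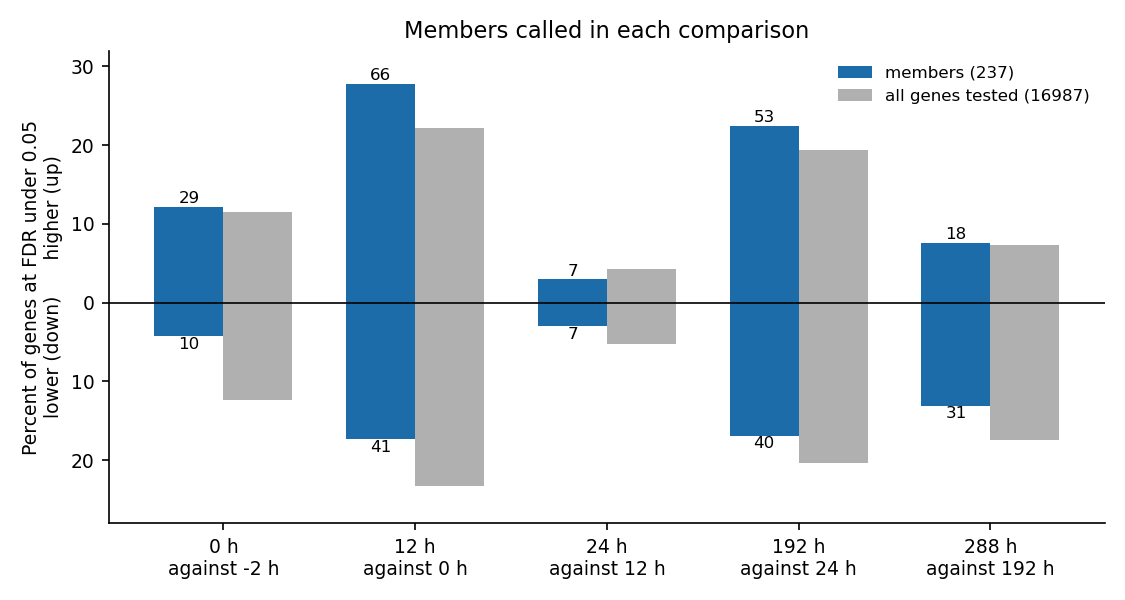
Percent of the 237 members (blue, with the number of members) and of all 16987 genes tested (grey) called higher (bars up from 0) or lower (bars down) in each comparison at an FDR under 0.05. More than 40% were called between 0 and 12 h in both sets, and the share of members called lower was under that of all genes in every comparison.

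From -2 h to 0 h, around hatching, 29 members rose and 10 fell, against a background of 11.5% and 12.3% of all genes tested. The members' shares were 12.2% and 4.22%, and their median log2 fold change was 0.10 (0.03 over all genes). Among members averaging at least 2 CPM, nhr-43 and nhr-41 fell furthest, and the rarer nhr-218 and nhr-127, averaging 0.564 and 0.595 CPM, had log2 fold changes of -2.83 and -1.67. The libraries of nhr-43 read 12.2, 27, 27.6 and 12.4 CPM at -2 h and 8.7, 5.3, 5.26 and 4.67 CPM at 0 h, with no overlap and a log2 fold change of -1.72 ± 0.29 (SE; FDR 1.53e-05). nhr-41, the relative of the vertebrate testicular receptors TR2 and TR4, read 69.4, 106, 136 and 92.3 CPM before and 22.2, 43.7, 42.1 and 38.2 CPM after (-1.46 ± 0.17, FDR 1.34e-08). Smaller falls were seen for nhr-124, nhr-290 and nhr-170.

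Of members meeting both limits, nhr-167 rose most at hatching, with 2.47, 2.16, 0.979 and 3.47 CPM at -2 h and 4.28, 5, 5.26 and 6 CPM at 0 h (1.13 ± 0.24, FDR 0.000443). nhr-185 (1.91, higher in 3 of 4 replicates) and nhr-222 (1.19) averaged 1.99 and 1.36 CPM and were also called higher. nhr-7 rose from 36.4 ± 1.5 to 65.5 ± 5.24 CPM (SD, n = 4; log2 fold change 0.84 ± 0.13, FDR 4.56e-06), and nhr-283, nhr-178 and the pseudogene nhr-191 also rose, all from below 2 CPM. The calls of nhr-124, nhr-170, nhr-178, nhr-191, nhr-283 and nhr-290 were each lost without at least 1 replicate number, with FDRs of up to 0.126, 0.0898, 0.172, 0.169, 0.0846 and 0.347 over the alternatives run. The number of members called higher fell from 29 to 14 without replicate 5 or without replicate 6, to 17 without replicate 8 and to 16 without the pair of libraries rich in ribosomal RNA, while the number called lower fell from 10 to 5 without replicate 5 and to 6 without replicate 8. Over all genes tested, the share called higher fell as well, from 11.5% to 7.73, 6.7, 7.21 and 6.11% in the same order of settings. The share called lower fell from 12.3% to 8.68% without replicate 5 and 8.95% without replicate 8. Of 5 hypodermal markers, 3 (dpy-7, lin-26 and nhr-23) fell and elt-3 rose at this step, and their summed level went from 167 to 290 CPM at -2 h to 126 to 150 CPM at 0 h. Of the intestinal markers 3 rose (1812 to 2712 CPM in sum, then 2632 to 3836 CPM), as did 3 of 5 muscle markers (7249 to 10430 CPM, then 9810 to 13242 CPM). Their part in these changes was not tested.

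The first 12 h of starvation had the most calls of any comparison, among members and among all genes tested. Between 0 and 12 h, 66 members rose and 41 fell, or 27.8% and 17.3%, against 22.2% and 23.3% of all genes tested (45.4% in both directions, and 45.1% of the members). The median log2 fold change was 0.00 (-0.02 over all genes). Among the 6600 genes with mean levels inside the middle range of the members, 19.8% rose and 29.5% fell. Among members averaging at least 2 CPM, those that rose most were nhr-18 (2.22 ± 0.10, FDR 9.71e-22, libraries above), its neighbour nhr-103 (14.9 ± 2.5 to 44.6 ± 7.07 CPM, 1.58 ± 0.14), nhr-109 (16.5 ± 2.71 to 49.2 ± 5.01 CPM, 1.58 ± 0.11), nhr-88 (117 ± 27.4 to 335 ± 4.62 CPM, 1.52 ± 0.17) and nhr-232 (8.96 ± 0.957 to 25.6 ± 2.64 CPM, 1.51 ± 0.17). nhr-88 had the highest FDR of the last 4, at 3.5e-10, and each of these 5 members was higher in 4 of 4 replicates. The rarer nhr-174 and nhr-217, averaging 0.615 and 0.406 CPM, had larger fitted changes of 3.53 and 2.90.

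Over the same 12 h nhr-12 fell furthest among members averaging at least 2 CPM. Its libraries read 9.06, 8.82, 10.7 and 6.89 CPM at 0 h and 3.92, 2.71, 2.81 and 4.4 CPM at 12 h (-1.35 ± 0.28, FDR 7.36e-05). nhr-85 and nhr-31, described below with their roles, fell by 1.10 and 1 log2 units, and nhr-216 (12.2 ± 1.21 to 5.96 ± 1.08 CPM) and nhr-137 (5.8 ± 1.39 to 2.91 ± 0.472 CPM) fell by 1.04 and 0.99 on the log2 scale. The groups of nhr-12 did not overlap. Rarer members with larger falls included nhr-188 (-2.01) and nhr-149 (-1.98), which averaged 0.995 and 1.84 CPM. The calls of the 5 leading rises and 5 leading falls held under every alternative that could be run for them; nhr-12 and nhr-137 were too rare for the filter at a mean of 5 CPM. Of 7 intestinal markers tested, 5 rose (elt-7, ges-1, vha-6, ifb-2 and mtl-2) and elt-2 and act-5 fell between 0 and 12 h, with summed levels of 2632 to 3836 CPM and 3370 to 3830 CPM that overlapped. Of 6 neuronal markers egl-3 rose and unc-119, rab-3 and ric-4 fell, and their sums of 1299 to 1661 CPM and 2017 to 2404 CPM did not overlap. Of 7 germline markers 3 fell (pgl-1, pgl-3 and mex-5; 87.7 to 108 CPM, then 56.6 to 93.4 CPM in sum). Among the others unc-54 rose and unc-27 and dpy-7 fell. The part of these markers was not tested.

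From 12 to 24 h few members changed, with 7 rising and 7 falling (2.95% each, against 4.26% and 5.29% of all genes tested, or 9.54% in both directions). nhr-129 had the largest rise. Its libraries read 11.3, 16.8, 13.6 and 16 CPM at 12 h and 22.4, 23.3, 24.4 and 31.4 CPM at 24 h, without overlap (0.81 ± 0.14, FDR 5.45e-05). nhr-18 (0.67 ± 0.09), nhr-80 (0.62 ± 0.13), nhr-88 (0.52 ± 0.17) and nhr-109 (0.44 ± 0.11) went on rising. nhr-11 fell furthest, from 7.04, 3.15, 4.48 and 3.51 CPM to 1.02, 0.921, 1.19 and 1.21 CPM (-2.07 ± 0.35, FDR 6.67e-05), with every later library below every earlier one. The other leading falls were those of nhr-112 (5.67 ± 1.4 to 2.59 ± 1.39 CPM), nhr-58 (7.44 ± 1.44 to 3.66 ± 0.602 CPM), nhr-62 and nhr-67. At this step the intestinal markers ges-1 and act-5 fell and the neuronal marker egl-3 rose (neuronal sums of 2017 to 2404 CPM, then 2530 to 2687 CPM), and their part was not tested.

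With the replicate number as a block, 12 members rose and 11 fell from 12 to 24 h (6.43% and 8.12% of all genes tested). Without TMM scaling the counts were 2 and 21 (0.889% and 11.5% of all genes tested). Leaving out replicate 6 gave 3 rises and 4 falls, leaving out replicate 8 gave 4 rises, leaving out replicate 1 gave 4 falls, and without the libraries rich in ribosomal RNA 4 members rose. Over all genes tested these shares were 2.7% and 3%, 2.5%, 3.76% and 3.16%, in the same order. The calls of nhr-62, nhr-67, nhr-88, nhr-109 and nhr-112 were each lost without at least 1 replicate number, with FDRs of up to 0.125, 0.228, 0.331, 0.35 and 0.17 over the alternatives, and that of nhr-80 was lost without scaling (up to 0.119).

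Between 24 and 192 h, 53 members rose and 40 fell (22.4% and 16.9%, against 19.4% and 20.3% of all genes tested, or 39.7% in both directions), with a median log2 fold change of 0.06 (-0.05 over all genes). nhr-170 rose most, from 18.4, 16.2, 18 and 19.1 CPM to 75.2, 56.6, 61.1 and 72.2 CPM (1.89 ± 0.16, FDR 1.3e-13). It had been at 6.09 CPM at 0 h and kept a high mean of 85.6 CPM at 288 h. nhr-80 (1.79 ± 0.12), nhr-17 (26.7 ± 0.374 to 82.8 ± 23.2 CPM, 1.63 ± 0.19), nhr-100 (46.7 ± 2.54 to 139 ± 15.1 CPM, 1.58 ± 0.11) and nhr-274 (67.7 ± 8.49 to 153 ± 20.6 CPM, 1.18 ± 0.13) followed, and the highest FDR among them was the 7.87e-10 of nhr-17. None of these groups overlapped.

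Among members averaging at least 2 CPM, nhr-114, described below, fell furthest from 24 to 192 h, and next to it stood nhr-112, nhr-137, nhr-61 (23.1 ± 3.82 to 9.91 ± 0.619 CPM, -1.22 ± 0.12) and nhr-141 (10.8 ± 1.8 to 4.68 ± 0.414 CPM, -1.21 ± 0.21). nhr-112 and nhr-137 were down to 1.08 and 0.795 CPM by then. Rarer members fell further, among them nhr-246 (-3.94), nhr-149 (-2.34) and nhr-188 (-1.71), which averaged 0.494, 1.84 and 0.995 CPM. The call of nhr-112 was lost without replicate 8 or the libraries rich in ribosomal RNA (FDR up to 0.126). Over the same interval all 5 muscle markers tested fell, from a summed 13829 to 15552 CPM to 2307 to 4016 CPM. Of the 7 intestinal markers 5 fell and mtl-2 rose (3348 to 3627 CPM, then 1225 to 1468 CPM), and of the 6 neuronal ones egl-3 alone was called, upward (2530 to 2687 CPM, then 3757 to 4282 CPM in sum). The germline markers glh-1 and nos-2 and the hypodermal marker elt-3 also fell. The part of these tissue markers in the receptors' changes was not tested. In 43 of the 53 members that rose (81.1%), replicate 5 had the lowest of the 4 libraries at 192 h, and the same held for 68.7% of all genes called higher. Without replicate 5, 53 members were again called higher, and 17.2% of all genes tested.

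The comparisons over the first 12 h and from 24 to 192 h share no library. Of the 66 members higher at 12 h than at 0 h, 33 were also higher at 192 h than at 24 h (50% of the first list and 62.3% of the second), 2 were lower (nhr-106 and nhr-108) and 31 were not called. Over all genes tested, 39.9% of those higher at 12 h were higher again and 19.6% were lower. Of the 41 members lower at 12 h, 13 were lower again at 192 h (31.7% of the first list and 32.5% of the second, where all genes gave 33.3% and 38.2%), and nhr-86 and nhr-143 were higher. These overlaps were described and not tested.

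From 192 to 288 h, when lethality was under way, 18 members rose and 31 fell (7.59% and 13.1%, against 7.39% and 17.4% of all genes tested). Among members averaging at least 2 CPM, nhr-17 rose most. It held 87.5, 53.8, 110 and 79.9 CPM at 192 h and 252, 92.8, 245 and 171 CPM at 288 h (1.20 ± 0.18, FDR 9e-07), so that replicate 5 was lowest at both times and its later value overlapped the earlier group. nhr-3 read 93.8, 81.6, 105 and 99.2 CPM and then 215, 125, 226 and 158 CPM (0.93 ± 0.27, FDR 0.00764), again with the lowest value in replicate 5. nhr-277 (3.13 ± 1.01 to 6.28 ± 1.54 CPM, 1.00 ± 0.22), nhr-62 and nhr-86 also rose. The rarer nhr-246 (3.22, higher in 3 of 4 replicates) and nhr-174 (2.35), averaging 0.494 and 0.615 CPM, and nhr-271, averaging 0.66 CPM, had larger fitted rises. Replicate 5 was the lowest library at 288 h in 13 of the 18 members that rose (72.2%, and 73.9% of all genes called higher), and without it 18 members were called higher (6.78% of all genes tested).

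nhr-282 fell furthest after 192 h, from 3.27, 4.4, 4.01 and 5.82 CPM to 0.813, 2.27, 1.68 and 1.66 CPM (-1.44 ± 0.30, FDR 0.000225), with no overlap. nhr-68, nhr-106 (6.44 ± 2.14 to 2.91 ± 1.03 CPM), nhr-290 (2.84 ± 0.804 to 1.37 ± 0.487 CPM) and the pseudogene nhr-250 (7.01 ± 1.55 to 3.55 ± 0.912 CPM) followed. The call of nhr-3 was lost without replicate 6 (FDR up to 0.06). That of nhr-290 was lost without replicate 5 or 6, without scaling and in the fit of those time points alone (up to 0.136). Without TMM scaling 32 members rose and 11 fell, and with upper-quartile scaling 34 rose and 23 fell. Of all genes tested, 12% rose and 7.49% fell without scaling, and 12.3% and 12.6% with upper-quartile scaling. The 5 muscle markers, at 603 to 824 CPM in sum, and 4 of the 7 intestinal markers, at 386 to 612 CPM for all 7, were lower at 288 h than at 192 h. elt-3 fell and the germline marker mex-5 rose, and the part of these markers was not tested.

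Of the 9 members with counterparts outside the HNF4-type expansion, 8 passed the test over 12 time points (84.9% of all genes tested did), and the 5 comparisons called 3, 4, 1, 1 and 4 of them in time order. In percent these were 33.3, 44.4, 11.1, 11.1 and 44.4, against 23.8, 45.4, 9.54, 39.7 and 24.7 of all genes tested. Their summed level went from 337 ± 44 CPM at -2 h to 255 ± 35.5 CPM at 0 h and 218 ± 19.3 CPM at 288 h (SD, n = 4). nhr-41 accounted for most of the first drop and rose again at the end, from 46, 38.3, 34.2 and 44.7 CPM at 192 h to 80.9, 43.4, 60 and 56.2 CPM at 288 h (0.56 ± 0.17, FDR 0.0119), with 1 of the later libraries inside the earlier range and no call without replicate 6 (FDR up to 0.0879). nhr-85, related to the insect ecdysone-induced receptor E75 and the mammalian Rev-Erb receptors, went from 24.1, 30, 29.2 and 30.3 CPM at 0 h to 13.4, 14.1, 11.4 and 14.4 CPM at 12 h (-1.10 ± 0.15, FDR 8.34e-08). It was higher again at 288 h, at 25.4, 12.7, 20.6 and 17.2 CPM (0.66 ± 0.16 against 192 h, FDR 0.00114), overlapping the earlier group.

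nhr-91, related to the vertebrate germ cell nuclear factor, fell from 33.2 CPM at -2 h to 23.7 CPM at 0 h (-0.48 ± 0.13, FDR 0.00498) and 14.8 CPM at 12 h (-0.68 ± 0.13, FDR 3.71e-05). The first of these calls was lost without replicate 5, scaling or the filter and in the fit of those time points alone (FDR up to 0.199). A later fall, to 8.63 CPM at 288 h (-0.39 ± 0.14, FDR 0.0382), was lost without any 1 of the replicates, with DESeq2 and with every other scaling and filter (up to 0.52). nhr-6, the NR4A-type receptor, rose from 12.1 to 17.2 CPM at hatching (0.51 ± 0.14, FDR 0.00763, up to 0.175 without replicate 5) and was back at 10.8 CPM at 12 h (-0.67 ± 0.14, FDR 0.000131). nhr-8 and nhr-48 are relatives of the sterol-hormone receptor DAF-12, and nhr-8 is known for roles in sterol balance and toxin resistance. nhr-8 rose from 24 CPM at 0 h to 33.3 CPM at 12 h (0.47 ± 0.20, FDR 0.0481, lost without replicate 5, 6 or 8, without scaling and under other alternatives, up to 0.152) and from 36.3 CPM at 24 h to 59.2 CPM at 192 h (0.71 ± 0.20, FDR 0.00295). nhr-48 read 92.5, 88.9, 88.4 and 83.2 CPM at 192 h and 47.9, 62, 49.6 and 53.3 CPM at 288 h, with no overlap (-0.73 ± 0.11, FDR 2.11e-06).

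nhr-67, the relative of the insect gene *tailless*, had means of 11.1 CPM at 12 h and 6.77 CPM at 24 h (-0.72 ± 0.24, FDR 0.0472), a call lost under several alternatives (FDR up to 0.228). nhr-111 and nhr-239 passed none of the 5 comparisons, and nhr-111 had no mean above 1.43 CPM. nhr-239 had means of 1.93 CPM at 0 h and 6.75 CPM at 288 h.

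All 10 receptors of lipid and nutrient metabolism passed the test over 12 time points, as did 84.9% of all genes tested. The comparisons called 0, 7, 2, 8 and 4 of them in time order, against 23.8, 45.4, 9.54, 39.7 and 24.7% of all genes tested. In both of the wide intervals some rose while others fell. From 0 to 12 h nhr-10, nhr-64, nhr-69 and nhr-80 rose and nhr-62, nhr-68 and nhr-114 fell. From 24 to 192 h nhr-10, nhr-66 and nhr-80 rose and nhr-13, nhr-62, nhr-68, nhr-76 and nhr-114 fell. Their summed level was 290 ± 11.8 CPM at -2 h, 307 ± 18.5 CPM at 24 h and 415 ± 19.7 CPM at 192 h (SD, n = 4).

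nhr-80, a partner of NHR-49 in driving fatty acid desaturase genes, had the largest rise of this list. Its libraries read 26.8, 34.7, 34.8 and 37.9 CPM at 24 h and 106, 125, 112 and 121 CPM at 192 h, well apart (1.79 ± 0.12, FDR 6.66e-16). At 288 h they read 92.6, 95.3, 85.5 and 76.6 CPM (-0.40 ± 0.12, FDR 0.00889), a fall whose call was lost without replicate 5 or 8 and with other scalings (FDR up to 0.436). nhr-13, another partner of NHR-49, went the other way, from 8.23 CPM at 24 h to 5.26 CPM at 192 h (-0.65 ± 0.19, FDR 0.00426), a call lost without replicate 1 (FDR up to 0.0919). nhr-66, a partner of NHR-49 in sphingolipid and lipid-remodelling genes, rose from 67.7 to 87.6 CPM (0.37 ± 0.11, FDR 0.00431), a call lost without scaling (FDR up to 0.0733). nhr-49 itself is not a member and was called higher in the same 2 intervals, with means of 168 CPM at 0 h, 210 CPM at 12 h, 214 CPM at 24 h and 367 CPM at 192 h.

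nhr-10 and nhr-68 are known to act in sequence to switch on the propionate shunt, the pathway that breaks down propionate when vitamin B12 is low. Their mRNAs were called in opposite directions from 0 to 12 h (nhr-68 -0.57 ± 0.14, FDR 0.000952) and from 24 to 192 h. Both had higher means at 6 h than at 0 h, and nhr-10 was not called from 192 to 288 h. nhr-10 rose from 58.7 CPM at 0 h to 73.2 CPM at 12 h (0.32 ± 0.10, FDR 0.00891, a call lost without replicate 8, scaling or the filter, with up to 0.162 over the alternatives) and from 72.6 CPM at 24 h to 104 CPM at 192 h (0.52 ± 0.10, FDR 5.12e-05). nhr-68 was highest at 6 h, with a mean of 42.3 CPM. It then read 12.1, 15.2, 14.9 and 15.2 CPM at 24 h, 7.51, 9.05, 9.9 and 7.22 CPM at 192 h (-0.77 ± 0.16, FDR 7.17e-05) and 3.98, 2.92, 4.39 and 3.15 CPM at 288 h (-1.22 ± 0.17, FDR 3.03e-07), each group below the one before.

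nhr-114, which protects against low vitamin B12 through the methionine and S-adenosylmethionine cycle, had its highest mean of 51.2 CPM at 2 h. Its libraries read 24.2, 24.4, 27.7 and 29.7 CPM at 24 h and 6.02, 11.1, 13.2 and 10.5 CPM at 192 h, with no overlap (-1.38 ± 0.16, FDR 7.79e-10). nhr-62, needed for the long life of diet-restricted worms, fell in 3 successive comparisons, from 13.3 CPM at 0 h to 9.24, 5.6 and 3.42 CPM at 12, 24 and 192 h, and rose to 5.91 CPM at 288 h (0.79 ± 0.21, FDR 0.00415). Each of those 3 falls was lost without at least 1 replicate number, with FDRs of up to 0.0965, 0.125 and 0.0928. nhr-64 and nhr-69 are close relatives of HNF4. nhr-64 rose from 16.3 to 33.7 CPM in the first 12 h (1.05 ± 0.12, FDR 1.02e-09). nhr-69 rose from 26.9 to 37.2 CPM (0.46 ± 0.12, FDR 0.00138, up to 0.0568 without scaling), and again from 31.1 CPM at 192 h to 43.2 CPM at 288 h (0.48 ± 0.12, FDR 0.00231, up to 0.0837 without replicate 6). nhr-76, which acts on intestinal fat loss, was scarce, with means of 2.98 CPM at 24 h and 1.39 CPM at 192 h (-1.07 ± 0.37, FDR 0.0186), a call lost without replicate 8 or the libraries rich in ribosomal RNA (FDR up to 0.265).

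The 5 receptors tied to toxins, pathogens, oxygen or iron had sums between 147 ± 18.1 CPM at 96 h and 195 ± 37.4 CPM at 288 h (SD, n = 4). All 5 passed the test over 12 time points, as did 84.9% of all genes tested. The comparisons called 20, 40, 0, 20 and 20% of them in time order, against 23.8, 45.4, 9.54, 39.7 and 24.7% of all genes tested. nhr-86, which senses a metabolite of the pathogen *Pseudomonas aeruginosa*, fell from 20.8 to 13.4 CPM in the first 12 h (-0.64 ± 0.14, FDR 0.000157) and read 32.2, 16.5, 26.6 and 26.9 CPM at 288 h (0.67 ± 0.14 against 192 h, FDR 0.000181). Its rise from 12.4 to 16 CPM between 24 and 192 h (0.37 ± 0.14, FDR 0.0367) was lost without replicate 6 or 8, without scaling and under other alternatives (up to 0.472). Replicate 5 was again the lowest at 288 h and lay within the range of 192 h, when replicate 6 alone exceeded 14.7 CPM, at 21.1 CPM. nhr-14, a regulator of intestinal iron uptake, rose from 49.1 to 70.2 CPM in the first 12 h (0.52 ± 0.14, FDR 0.00167). nhr-176, which senses the drug thiabendazole, rose from 3.75 to 5.62 CPM at hatching (0.58 ± 0.21, FDR 0.0338), a call lost without replicates 5, 6 or 8 and under other alternatives (FDR up to 0.16). nhr-45, involved in the response to a bacterial phenazine, and nhr-57, a target of the hypoxia factor HIF-1, passed none of the 5 comparisons. Their means lay between 56.4 and 87.6 CPM and between 7.82 and 15.2 CPM.

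All 4 receptors of embryonic and tissue development passed the test over 12 time points, as did 84.9% of all genes tested. Only nhr-31 was called in any of the 5 comparisons. In time order these called 0, 25, 25, 0 and 0% of the list, against 23.8, 45.4, 9.54, 39.7 and 24.7% of all genes tested. nhr-31, needed for growth of the excretory cell, read 172, 186, 212 and 209 CPM at 0 h, 101, 91.9, 103 and 93.6 CPM at 12 h and 73.9, 62.1, 84.9 and 72.6 CPM at 24 h. The groups did not overlap, the first fall had an FDR of 3.96e-09 and the second a log2 fold change of -0.41 ± 0.12 (FDR 0.0249, lost without replicate 1, 5 or 8 and under other alternatives, up to 0.123). nhr-40, which acts in muscle development, had means from 57.5 CPM at 288 h to 107 CPM at 4 h. nhr-2, an early embryonic receptor, and nhr-60, which acts in the hypodermal seam cells, never had a mean above 3.5 CPM.

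**Figure D4:**
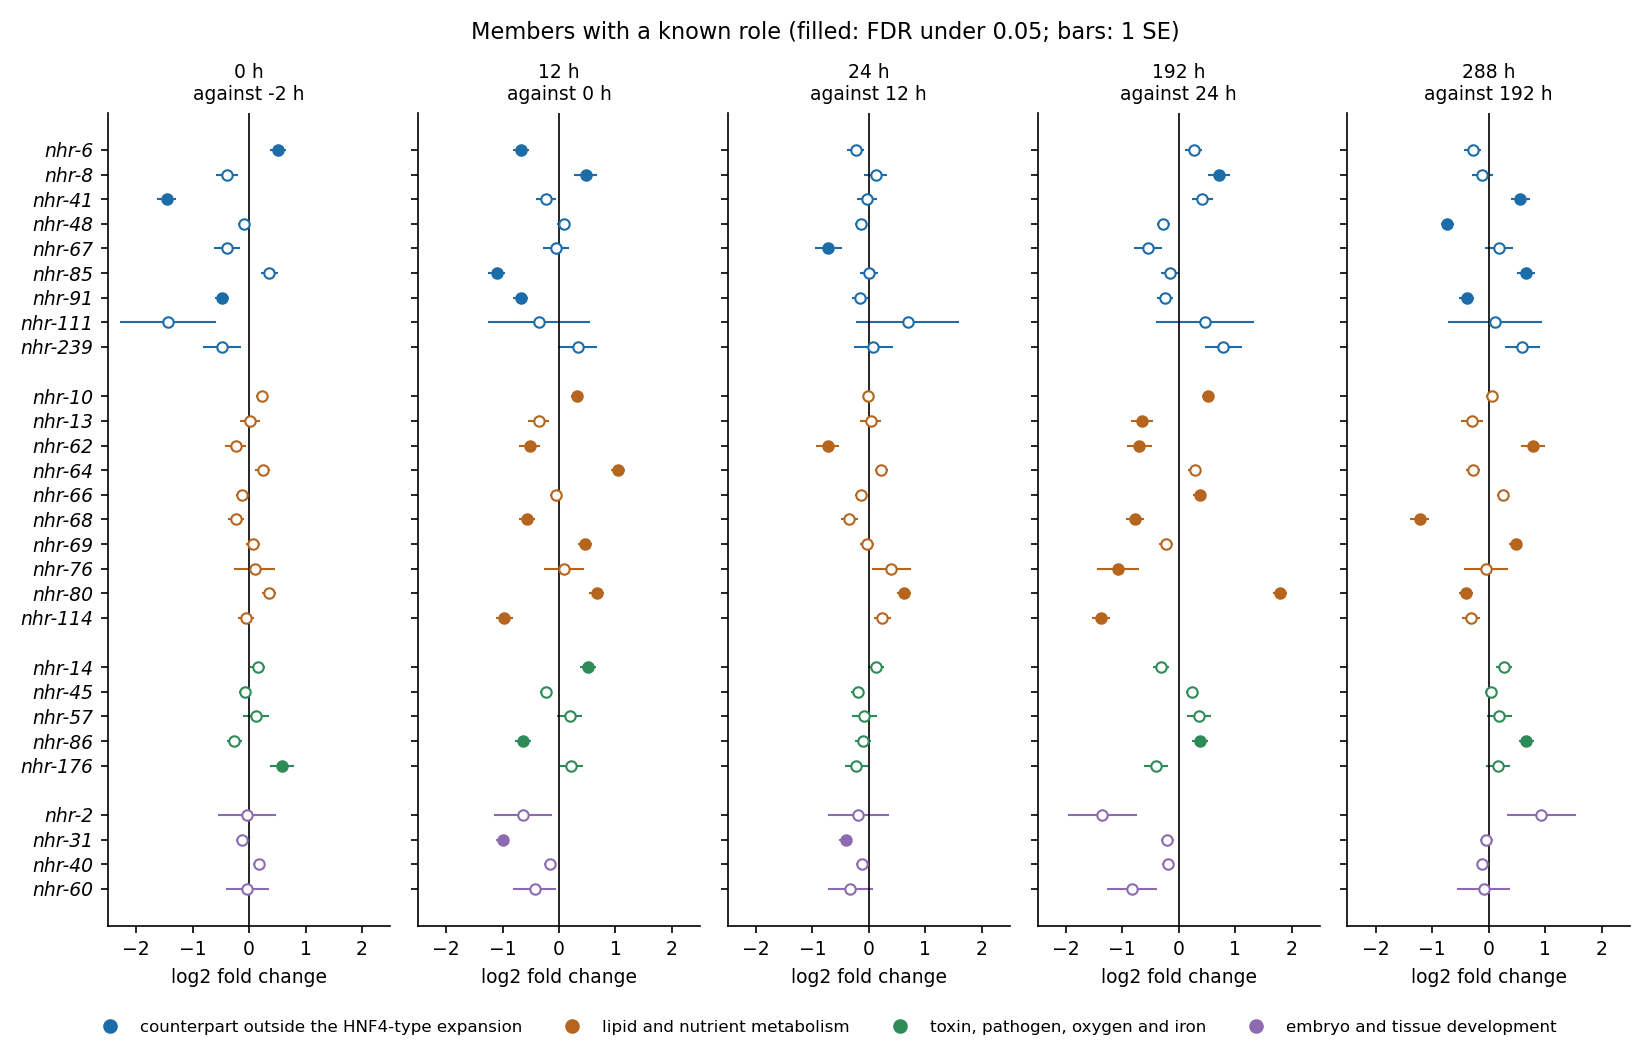
Log2 fold change of the 28 members with a known role in each of the 5 comparisons (bars 1 SE; filled points FDR under 0.05), coloured by role. nhr-80 lay furthest right at 192 h against 24 h (1.79), while nhr-114 (-1.38) and nhr-68 (-0.77) lay to the left of 0 in the same panel.

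Cofactors and known target genes were measured alongside. mdt-15, the mediator subunit that works with NHR-49, rose from 509 to 666 CPM in the first 12 h (0.39 ± 0.11, FDR 0.00372). The acetyltransferase gene cbp-1 and din-1, which encodes the corepressor of DAF-12, both rose from 24 to 192 h, from 645 to 1123 CPM and from 368 to 854 CPM. daf-12 passed none of the 5 comparisons, with means between 87.1 and 107 CPM. Of 17 known regulated genes 16 were tested, and the comparisons called 5, 6, 3, 4 and 0 higher and 1, 6, 2, 5 and 5 lower in time order. Both directions together made up 37.5, 75, 31.2, 56.2 and 31.2% of these genes, against 23.8, 45.4, 9.54, 39.7 and 24.7% of all genes tested. fat-6, a desaturase gene driven by NHR-49 and NHR-80, rose from a mean of 62.1 CPM at -2 h to 5514 CPM at 192 h. Its near-copy fat-7 was listed with 0 counts in all 48 libraries, and whether the counts of fat-6 hold reads of both was not tested. In the propionate shunt, alh-8 rose from 658 to 14054 CPM between -2 and 192 h, whereas hphd-1 and hach-1 were called lower from 0 to 12 h, and acdh-1 stayed at or below 16.3 CPM and passed no comparison. Of genes of the methionine cycle, sams-1 (219 CPM at 0 h, 91.6 CPM at 192 h) fell in both wide intervals and metr-1 from 0 to 12 h.

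Neighbouring receptor genes correlated more over time than receptor genes that were not neighbours. In the RefSeq order of coding genes and pseudogenes, 149 *nhr* genes lay in 49 runs of at least 2, of which 12 held at least 5 genes and the longest 8. The 84 pairs of members lying next to each other had a median Pearson correlation of 0.625 across the 12 means (log2 of the mean CPM + 0.5). Pairs that were not neighbours had a median of 0.00881 (27882 pairs), those on chromosome V alone 0.00526 (12175 pairs), and neighbouring genes of any family 0.238 (14015 pairs). Leaving out the 3 neighbouring pairs whose gene spans overlap gave 0.588. The 12 points are shared by all genes and are a time course, so these values are descriptions without a test. From 0 to 12 h both neighbours were called in 27 pairs, in the same direction in 23 of them (85.2%, against 52.1% of pairs that were not neighbours and 63.3% of neighbouring genes of any family). From 24 to 192 h the count was 15 of 21 (71.4%, against 50.3% and 62.5%). Some neighbours may be close copies of each other, reads with up to 2 locations were kept, and the part of shared reads in these values was not tested.

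The run on chromosome V that holds nhr-18 has 7 members, and 6 of them rose from 0 to 12 h. In chromosome order the log2 fold changes were -0.29 for nhr-56 (not called), 0.77 for nhr-128, 1.58 for nhr-103, 2.22 for nhr-18, 0.90 for nhr-126, 0.59 for nhr-134 and 0.74 for nhr-96. On chromosome IV, all 5 members of another run rose in the same 12 h, with 0.94 for nhr-122, 0.77 for the pseudogene nhr-287, 0.94 for nhr-92, 0.87 for nhr-87 and 1.13 for nhr-146, and 3 of them fell from 192 to 288 h. The run from nhr-161 to nhr-42 on chromosome V, had 5 of 7 members higher at 12 h and 6 of 7 higher at 192 h than at 24 h, with nhr-107 the exception at -0.24. In the run from nhr-99 to nhr-106, 5 of 6 members rose by 12 h, and from 24 to 192 h 4 rose while nhr-106 fell, with 1.46 ± 0.22 in the first interval and -1.01 ± 0.22 in the second. The run from nhr-123 to nhr-201 fell instead, with 3 of its 5 members called lower in each of these intervals. Of all genes tested, 22.2% were called higher and 23.3% lower from 0 to 12 h, and 19.4% and 20.3% from 24 to 192 h. From 192 to 288 h, 17.4% were called lower. The runs shown were chosen after their values were seen. In each of the other runs of at least 5 genes, at most 1 member was called higher and at most 1 lower from 0 to 12 h.

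**Figure D5:**
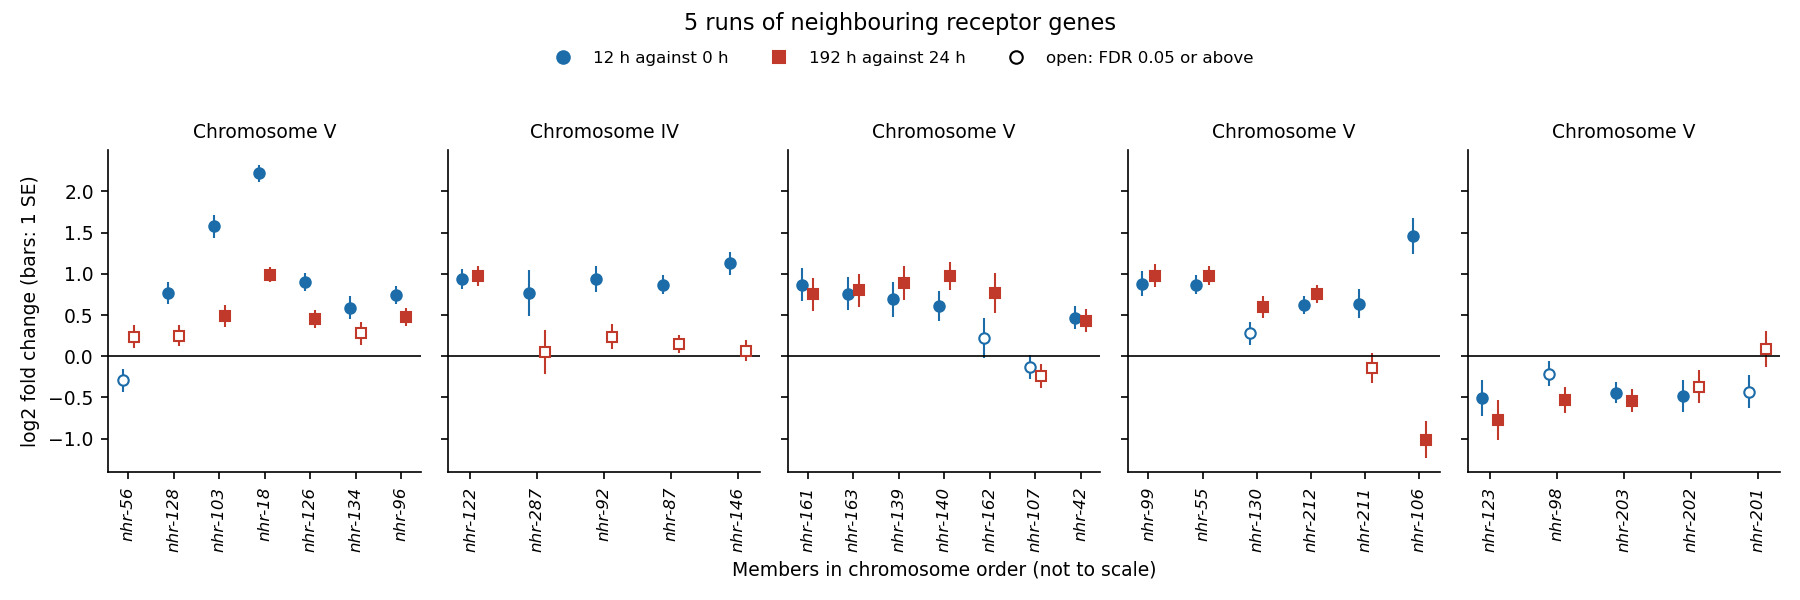
Log2 fold change (bars 1 SE) from 0 to 12 h (blue circles) and from 24 to 192 h (red squares) for the members of 5 runs of neighbouring receptor genes, in chromosome order (distances not to scale); open symbols had an FDR of 0.05 or above. In the first run nhr-18 stood highest at 2.22 and nhr-56, at the start of the run, lay below 0 at -0.29.

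Summed over the 237 members, the level was 4330 ± 219 CPM at -2 h, 5049 ± 234 CPM at 12 h, 5266 ± 203 CPM at 24 h, 6750 ± 468 CPM at 192 h and 6512 ± 625 CPM at 288 h (SD, n = 4). Libraries at -2 h ran from 4079 to 4542 CPM and those at 192 h from 6064 to 7051 CPM, without overlap. The net gain between these means was 2419 CPM, of which nhr-88 made up 36.7%, nhr-18 12.4% and nhr-35 6.36%. Over that span 126 members had a higher mean and the others a lower one. Without nhr-88 the sum went from 4249 ± 215 to 5780 ± 389 CPM (SD, n = 4). Without TMM scaling the sum was 4475 CPM at -2 h, 4718 CPM at 24 h and 5687 CPM at 192 h. Per library, 187 to 216 members exceeded 1 CPM. These sums are shares of the counts in a library and not amounts per larva.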

How the data were processed

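RNA was sequenced as single-end 50 base reads from libraries made with a kit that does not mark strand. According to the methods, the authors aligned reads with bowtie to the WS210 genome, dropping reads with more than 2 locations, and counted them per gene with HTSeq; tool versions and the strand setting are not given in the sources used here. The deposited values are raw counts, 1 file per library. HTSeq's summary rows, which name no gene, held 24.8% of all reads on average and were left out.

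Genes with more than 1 CPM in at least 4 libraries were kept. edgeR 4.0.16 (R 4.3.3) gave TMM factors, a likelihood ratio test over the 12 time points, and quasi-likelihood F tests for 5 pairs of time points in 1 fit of all 48 libraries. P-values were adjusted by the Benjamini-Hochberg method over all genes tested, and calls used an FDR under 0.05. Standard errors came from the fold change and the root of its F value. The fits were tested on simulated data. Named members were the 5 largest rises and falls per comparison with a mean of at least 2 CPM and the same direction in 4 of 4 replicates, the 8 highest per kilobase, and the role lists. The members and lists were chosen with earlier results of these data known. Gene order, chromosomes and exon lengths came from RefSeq and the WBcel235 annotation, which all 237 members matched, and no coordinates are given because the build differs from that of the files.

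Replicate numbers were taken as paired because the methods describe cultures sampled at every time. Deviations of same-numbered libraries of different time points correlated with a median of 0.182 over 264 pairs. For 40 of 48 libraries, the mean correlation with libraries of other time points was highest for their own number. The main model had no block, as in the study. P-values rest on the spread between libraries, pooled over all time points and treated as independent although replicate numbers were taken as paired. Alternatives were DESeq2 1.42.0, other scalings and filters, a replicate block, fits of 2 time points alone, and leaving out each replicate or the libraries rich in ribosomal RNA. DNA-binding-domain classes and sequence identity between members were not analysed here. Figures were drawn with matplotlib 3.10.9 (Python 3.11.15).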

Additional observations from a re-analysis of the deposited data

Results flagged for a closer look

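A single library stood apart from its group by Dixon's 95% criterion for 4 samples (the gap to the nearest library over the range) in 4 of 61 groups examined, and chance alone gives about 1 in 20. At 0 h, replicate 1 held the highest level of nhr-43, at 8.7 CPM, where the others had 4.67, 5.26 and 5.3 CPM (ratio 0.844). At 24 h, replicate 1 held the lowest level of nhr-68, at 12.1 CPM, against 14.9, 15.2 and 15.2 CPM (ratio 0.894). At 192 h, replicate 6 held the highest level of nhr-86, at 21.1 CPM, against 13.7, 14.5 and 14.7 CPM (ratio 0.872). At 6 h, replicate 1 had the lowest level summed over the members, 4588 CPM, against 5000, 5042 and 5078 CPM (ratio 0.842).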

How the results depend on the processing

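Of 80 calls of named members, 48 held under every alternative run for them (up to 13, since the filter at a mean of 5 CPM removes rarer members) and 32 were lost under at least 1, none of them under the replicate block, 15 without scaling, 13 when the pair of time points was fitted alone, 11 without a filter and 11 without the libraries rich in ribosomal RNA. None changed direction. Leaving out replicate 1, 5, 6 or 8 lost 12, 15, 18 and 16. From -2 to 0 h, the 29 members called higher became 11 in a fit of those time points alone, 17 without a filter, 44 with upper-quartile scaling, 16 without the libraries rich in ribosomal RNA and 14 to 22 without 1 replicate. The 10 called lower became 3 without a filter, 3 without scaling and 5 to 9 without 1 replicate. The shares of all genes tested moved as well. Those called higher went from 11.5% to 6.94% in the fit of those time points alone and to 15.4% with upper-quartile scaling. Those called lower went from 12.3% to 6.73% without scaling. From 12 to 24 h, the 7 called higher became 11 with DESeq2, 12 at a mean CPM of at least 5, 2 without scaling, 12 with the replicate block, 11 with upper-quartile scaling, 4 without the libraries rich in ribosomal RNA and 3 to 5 without 1 replicate. The 7 called lower became 21 without scaling, 11 with the replicate block and 4 to 5 without 1 replicate. From 192 to 288 h, the 18 called higher became 32 without scaling, 34 with upper-quartile scaling and 12 to 18 without 1 replicate, and the 31 called lower became 11 without scaling and 24 to 29 without 1 replicate. Without 1 replicate the members called higher and lower numbered 58 to 62 and 30 to 35 from 0 to 12 h and 46 to 53 and 27 to 36 from 24 to 192 h, those past the test over 12 time points 199 to 212, those highest at 4 h or before 73 to 85, and those highest at 96 h or later 89 to 98. Without scaling, the log2 fold changes of all genes shifted against the main fit. The median shifts were 0.14, -0.12, -0.22, -0.09 and 0.21 in the 5 comparisons in time order. The share of higher among called members went from 74.4 to 92.7%, 61.7 to 52.5%, 50 to 8.7%, 57 to 48.1% and 36.7 to 74.4%. From 192 to 288 h that share was 59.6% with upper-quartile scaling, 49.1% with DESeq2 and 48.1% with its size factors, and from 12 to 24 h 64.7% with upper-quartile scaling. The summed level without scaling was 5281 CPM at 0 h, 5296 CPM at 12 h, 4718 CPM at 24 h and 5687 CPM at 192 h, and 4037 CPM at -2 h with upper-quartile scaling. The cause of these differences was not tested. Members under 2 CPM rest on few counts per library, so changes in them are less well measured.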
